A study of Mus musculus with 3 samples.

Results

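The 9 genes described here encode the receptors, co-receptors and effectors through which a cell receives a Hedgehog signal: Ptch1, Hhip, Smo, Gli1, Gli2, Gli3, Cdon, Boc and Gas1. They were chosen by symbol, all 9 were found among the 53380 features of the count matrices, and all 9 had counts in every library. Their levels were followed across the mesenchymal cell classes of the mouse sciatic nerve in 3 single-cell RNA libraries, with 1 library per group.

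The groups were the intact nerve and the bridge region of the injured nerve, taken at day 7 and at day 21 after injury. All 3 libraries came from mice carrying the Pdgfrb-cre/ERT2 driver and the R26-TomatoLSL reporter, so that cells with a history of Pdgfrb promoter activity could carry TdTomato, and TdTomato-positive cells were sorted before capture. Pdgfrb is active in fibroblasts and in the mural cells of vessels, so the sort does not hold fibroblasts alone. Nerves were pooled within a library, and the age, strain and sex of the mice are not given in the sources used here. Debris was cleared with myelin-removal beads in the intact preparation alone, so that step and the absence of injury cannot be told apart. With 1 library per group there is no replicate error, no test was made, and every interval below covers counting error alone.

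Hedgehog ligands (Shh, Ihh and Dhh) bind the receptor Ptch1 and so release Smo, a membrane protein that Ptch1 otherwise holds inactive. Active Smo acts through the primary cilium on the transcription factors Gli2 and Gli3. Gli1, Ptch1 and Hhip are themselves transcribed in response, so their RNA is often read as a sign of signalling. In peripheral nerve, Schwann cells are a known source of Dhh, and mice that lack Dhh form a defective perineurium, the layered sheath around each fascicle.

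The authors deposited a class for 1343 cells of the intact library, 1780 at day 7 and 4111 at day 21, with a median of 5667, 19316 and 7442 unique molecular identifiers (UMIs) per cell. The main classes were endoneurial (663, 255 and 487 cells in that order), epineurial (540, 676 and 1027) and perineurial (116, 241 and 2069), named after the inside, the outer coat and the sheath of the fascicle. The classes MES_DIFF (16, 308 and 387 cells), MES_EPI-diff (1, 94 and 22) and a dividing class (7, 206 and 119) held few cells in the intact nerve. Levels are given in CPM, the UMIs of a gene divided by all UMIs of the group and scaled to 1000000. MES_DIFF cells carried 9417 CPM of 8 fixed injury mesenchymal markers at day 7 and 2886 at day 21, and the names MES_DIFF and MES_EPI-diff are not spelled out in the sources used here. Every fixed marker of the 3 main classes was highest in its own class in each library, except Smoc2 (endoneurial) and Comp (epineurial) at day 7. The 9 perineurial markers together stood at 5548 CPM in intact perineurial cells, 769 at day 7 and 2945 at day 21. The day 7 perineurial class thus carried less of its own markers than the other 2. The 9 endoneurial markers stood at 5038, 5175 and 2154 CPM in perineurial cells, and at 30614, 16971 and 17944 CPM in endoneurial cells. In the day 7 perineurial class they thus stood above its own markers. The injury mesenchymal markers stood at 892, 2111 and 816 CPM in perineurial cells. The day 7 value was still the lowest of any day 7 class, the next being endoneurial at 3781 CPM. A TdTomato UMI was seen in 29.8%, 63.6% and 35.2% of cells, and 102 of the 14703 barcodes (5 of them annotated) occurred in more than 1 library. The dividing class at day 21 had mast cell protease genes (Cma1, Mcpt4, Cpa3 and Tpsb2) among its 10 leading genes and 3 or more Schwann cell markers in 69 of its 119 cells.

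The start regions of Ptch1 and Hhip are shown because these 2 target genes had unlike patterns across the classes. Each line gives the 250 bases before the start site, 5′ to 3′ on the gene's own strand, from RefSeq (GRCm38.p6), with GC boxes (GGGCGG, or CCGCCC on the other strand) in capitals. In the mm10 build with GENCODE M21 annotation, Ptch1 lies at chr13:63508328-63573598 on the minus strand. Its window, chr13:63565736-63565985, falls inside these bounds. Hhip lies at chr8:79965851-80058006 on the minus strand, and its window, chr8:80058009-80058258, lies outside its bounds.
Ptch1: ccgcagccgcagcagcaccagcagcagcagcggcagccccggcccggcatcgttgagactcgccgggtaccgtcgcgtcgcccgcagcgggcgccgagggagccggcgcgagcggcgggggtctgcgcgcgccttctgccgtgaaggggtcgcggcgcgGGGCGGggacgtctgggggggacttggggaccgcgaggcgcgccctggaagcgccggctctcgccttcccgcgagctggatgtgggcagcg
Hhip: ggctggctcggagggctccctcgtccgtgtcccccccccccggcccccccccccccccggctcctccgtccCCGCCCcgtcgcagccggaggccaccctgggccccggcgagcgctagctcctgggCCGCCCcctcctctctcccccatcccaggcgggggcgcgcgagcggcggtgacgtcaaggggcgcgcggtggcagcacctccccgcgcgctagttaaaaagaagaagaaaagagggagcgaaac
The Ptch1 window held 1 GC box and 41 CpG dinucleotides at 78.4% G and C, and the Hhip window held 2 GC boxes and 28 CpG dinucleotides at 76.0%. A GC box was present in 10756 of 32851 windows of this length (32.7%), so a GC box alone does not set these 2 genes apart. The share among CpG-rich windows was not counted. The GLI consensus GACCACCCA, searched on both strands from 250 bases before to 50 after the start, was in none of the 7 members with an entry and in 0.253% of all such windows. Its core ACCACCC, present in 4.61% of windows, was found in Gli2 only, on the reverse strand 205 bases before the start (chr1:119053798-119053844, minus strand, core in capitals).
Gli2: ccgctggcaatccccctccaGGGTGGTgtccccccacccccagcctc
These matches describe the letters in the windows and say nothing of binding in these cells.

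Ptch1, the ligand receptor and itself a target gene, was highest in perineurial cells in all 3 libraries. Perineurial Ptch1 stood at 927 CPM in the intact nerve, on 672 UMIs and with an exact Poisson 95% interval of 858 to 999. It was 542 CPM in the day 7 library (519 to 566) and 740.4 in the day 21 library (726 to 755). The next class was endoneurial in the intact nerve, 3.53-fold lower (3.19 to 3.90), endoneurial at day 7, 2.40-fold lower (2.21 to 2.60), and MES_DIFF at day 21, 3.19-fold lower (2.98 to 3.42). Endoneurial cells held 263, 226 and 195 CPM in the order intact, day 7, day 21, and epineurial cells 28.4, 44.3 and 101 CPM. The lowest Ptch1 level of any class was 20.4 CPM, in MES_EPI-diff cells at day 7, whose leading genes include the tendon genes Scx and Tnmd. In the bridge, MES_DIFF cells held 150.4 and 232 CPM and dividing cells 196 and 225. At day 21 the intervals of MES_DIFF and dividing cells overlapped, as did those of dividing and endoneurial cells, and every other neighbouring pair was separate in each library.

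**Figure D1:**
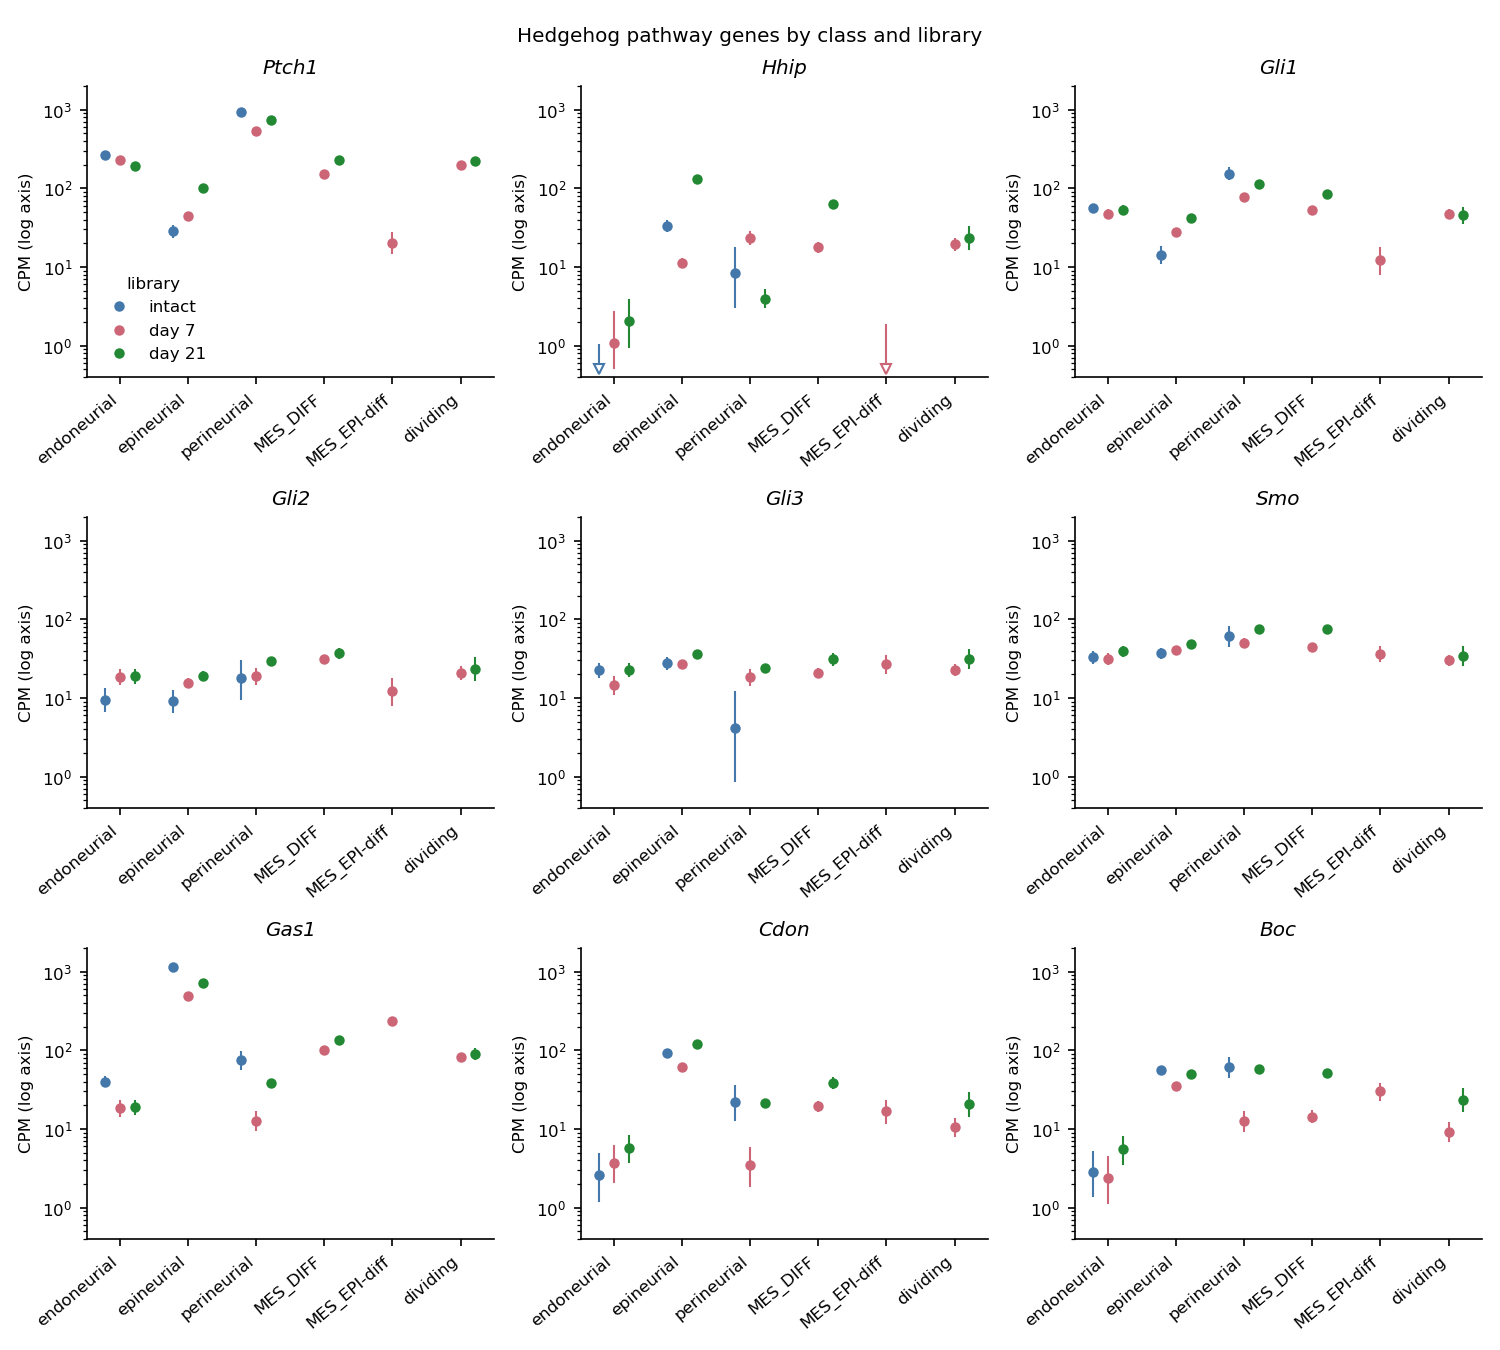
Level of the 9 genes in CPM (log axis) by class (x axis) and library (colour), for groups of at least 50 cells. Points are summed UMIs per class, bars are exact Poisson 95% intervals, and hollow triangles drawn at the foot mark groups with 0 counts. Ptch1 was highest in perineurial cells in every library, Gas1 and Cdon in epineurial cells, and Hhip reached 131 CPM in epineurial cells at day 21.

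The share of cells with a Ptch1 UMI was likewise highest in perineurial cells, and of the 3 main classes lowest in epineurial cells, in each library. With every cell thinned to 2000 UMIs, Ptch1 was seen in 56.9% of intact perineurial cells, with an exact 95% interval of 47.4 to 66.1, in 63.1% of day 7 cells (56.6 to 69.2) and in 60.2% of day 21 cells (58.0 to 62.3). Without thinning the shares were 76.7%, 92.9% and 81.5%, at median depths of 5291, 15443 and 5829 UMIs, and the order of the libraries in these shares differs from that in CPM, so none is read from them. Thinned endoneurial shares were 31.5%, 32.9% and 28.5%, and thinned epineurial shares 5.19%, 7.54% and 16.2%. As a measure of free RNA, myeloid-like cells outside the deposited classes, which should lack Ptch1, had a thinned share of 1.76% at day 7 (170 cells, median 8513 UMIs) and 6.94% at day 21 (173 cells, median 6308). The day 21 value is not an even background, since 41 of the 69 unthinned UMIs lay in 5 cells, with up to 10 in 1 cell. The intact library held only 2 myeloid-like cells, and vascular smooth muscle-like cells are given there in their place, at 5.53% (199 cells, median 6023 UMIs). Whether those cells lack Ptch1 was not tested, so they do not set a free RNA level for the intact library. Intact epineurial Ptch1 was at their level, and epineurial Ptch1 at day 21 was above the myeloid-like share of that library.

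Perineurial cells made up 50.3% of the annotated cells at day 21, against 8.64% in the intact nerve and 13.5% at day 7, and they held most of the Ptch1 UMIs of that library. Perineurial cells gave 39.2% of the annotated Ptch1 UMIs in the intact nerve, 35.4% at day 7 and 76.0% at day 21, while holding 8.66%, 10.4% and 39.7% of all UMIs. The endoneurial share of Ptch1 UMIs was 53.1%, 14.7% and 6.50% in the same order.

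**Figure D2:**
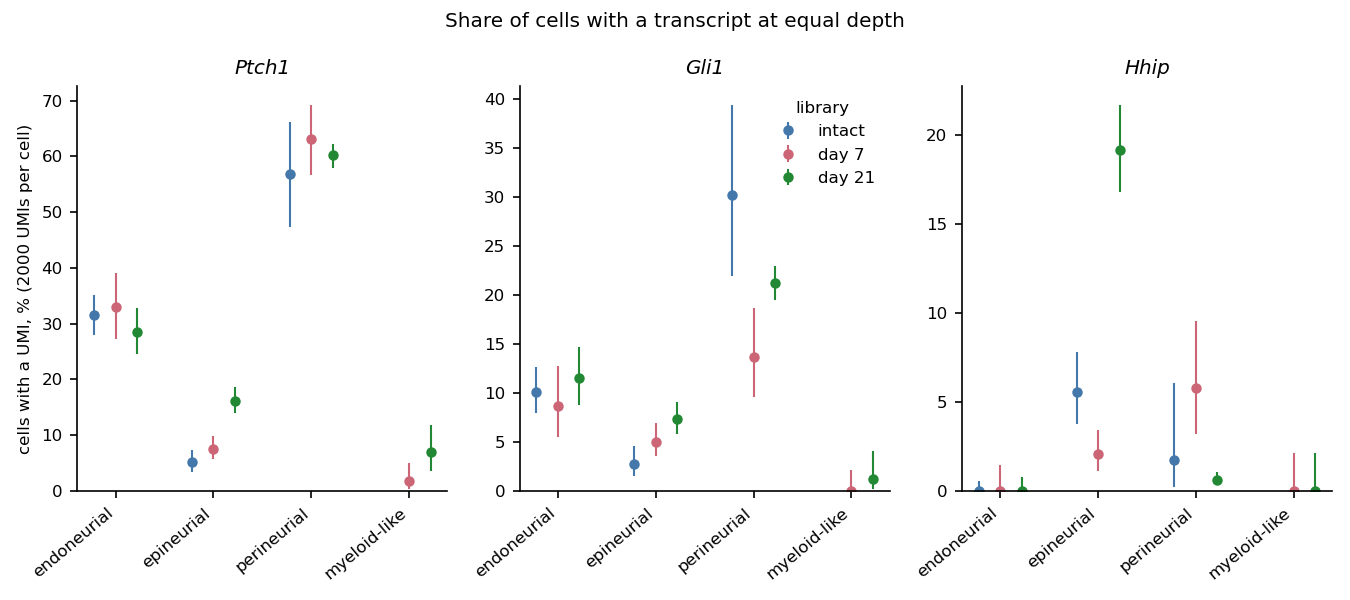
Share of cells (percent, y axis) with at least 1 UMI of Ptch1, Gli1 or Hhip after thinning every cell to 2000 UMIs, by class and library, with exact 95% intervals. Myeloid-like cells are the comparison for free RNA. Perineurial cells held Ptch1 in 56.9% to 63.1% of cells, and Hhip was seen in 19.2% of epineurial cells at day 21.

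Hhip encodes a membrane protein that binds Hedgehog ligands and withholds them from Ptch1, and it is a target gene as well. Its class order differed from that of Ptch1. In the intact nerve Hhip was highest in epineurial cells, at 33.2 CPM (27.7 to 39.4, 131 UMIs), against 8.27 CPM in perineurial cells (6 UMIs) and 0 UMIs in 663 endoneurial cells. The epineurial level was 3.72-fold above the perineurial one (1.79 to 11.1) and at least 38.4-fold above the endoneurial floor of 3 UMIs. At day 7 epineurial Hhip stood at 11.3 CPM (9.58 to 13.2), below the 23.5 CPM of perineurial cells (18.8 to 28.9). At day 21 the 2 classes were the other way round, with 131 CPM in epineurial cells (124 to 138, 1350 UMIs) and 3.96 in perineurial cells (2.97 to 5.18, 53 UMIs). MES_DIFF cells held 17.7 CPM at day 7 and 63.2 at day 21, and dividing cells 19.5 and 23.6. At day 7 the interval of dividing cells overlapped those of perineurial and MES_DIFF cells. Endoneurial Hhip was low in the bridge as well, at 4 UMIs at day 7 and 9 UMIs at day 21, of which 7 came from 1 cell.

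Epineurial Hhip at day 21 was spread over many cells. The 1350 UMIs came from 403 of 1027 cells, and the 5 cells with most held 5.93% of them. In the intact nerve 51 of 540 epineurial cells held the 131 UMIs, with 32.8% in 5 cells, and at day 7 the 153 UMIs came from 54 of 676 cells. After thinning, Hhip was seen in 5.56% of epineurial cells in the intact nerve, 2.07% at day 7 and 19.2% (16.8 to 21.7) at day 21. Myeloid-like cells gave 0 of 170 and 0 of 173 thinned cells, and intact vascular smooth muscle-like cells 0 of 199. Perineurial Hhip at day 7 rested on 88 UMIs in 52 of 241 cells, with 26.1% in 5 cells, so it too came from more than a few cells. In those day 7 cells the perineurial markers were lower and the injury markers higher than in perineurial cells of the other 2 libraries, as given above. The part of that shift in the Hhip level was not tested.

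Among the effectors, Gli1 (chr10:127329882-127341974, minus strand), which is both a transcription factor of the pathway and its most widely used reporter gene, followed Ptch1. Perineurial Gli1 stood at 154 CPM (127 to 186) in the intact nerve, 76.5 (67.9 to 85.9) at day 7 and 114 (108 to 119.7) at day 21, the highest of any class in each library. It exceeded the next class 2.78-fold (2.18 to 3.52) in the intact nerve, 1.46-fold (1.25 to 1.70) at day 7 and 1.36-fold (1.21 to 1.54) at day 21. Endoneurial Gli1 was nearly level, at 55.6, 47.4 and 53.5 CPM. Epineurial Gli1 was lowest of the 3 main classes, at 14.4, 27.8 and 41.8 CPM, and MES_DIFF cells held 52.5 and 83.6 in the bridge. Myeloid-like cells held 2.35 CPM at day 7 and 11.3 at day 21, below every class of the same library. Across the 14 class and library groups of at least 50 cells, Gli1 and Ptch1 had a Pearson r of 0.96 on log2(CPM + 1), whereas Ptch1 and Hhip had 0.01. The groups come from 3 libraries and share them, so these values are a description.

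Gli2 (chr1:118834132-119053619, minus strand), the main activator among the Gli factors, and Gli3 (chr13:15463235-15730026, plus strand), the main repressor, were less class-restricted. Gli2 stood at 17.9 CPM in perineurial, 9.51 in endoneurial and 9.12 in epineurial cells of the intact nerve, at 18.9, 18.7 and 15.7 at day 7, and at 29.4, 18.8 and 19.2 at day 21. MES_DIFF cells held the highest Gli2 in both bridge libraries, at 31.4 and 36.8 CPM, the latter overlapping the perineurial interval. Neighbouring classes overlapped in nearly every case for Gli2, so no finer order can be read. Gli3 was highest in epineurial cells in each library, at 27.6, 27.4 and 35.8 CPM, with intervals that overlapped those of the next class. In perineurial cells Gli3 rested on 3 UMIs in the intact nerve (4.14 CPM, 0.853 to 12.1), and stood at 18.4 CPM at day 7 and 24.4 at day 21. The intact perineurial value is set by those 3 UMIs in 116 cells, so its ratios carry wide intervals.

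Smo (chr6:29735503-29761365, plus strand), the signal transducer, was present in every class, with the highest class 1.86-fold, 1.67-fold and 2.18-fold above the lowest in the order intact, day 7, day 21. Perineurial Smo stood at 60.7, 50.6 and 75.1 CPM, epineurial at 37.0, 41.1 and 48.1, and endoneurial at 32.9, 31.6 and 39.3, in the order intact, day 7, day 21. The perineurial interval was separate from the others in the intact nerve only, and at day 21 MES_DIFF cells, at 75.7 CPM, overlapped it. After thinning, the highest class for Smo was epineurial in the intact nerve and MES_DIFF at day 7.

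The co-receptors Gas1 (chr13:60174405-60177365, minus strand), Cdon (chr9:35421128-35507652, plus strand) and Boc (chr16:44485049-44558897, minus strand) bind ligand at the cell surface and help present it to Ptch1, and Gas1 and Cdon were highest in epineurial cells. Epineurial Gas1 stood at 1145 CPM (1112 to 1179) in the intact nerve, 495 (483 to 506) at day 7 and 725 (709 to 742) at day 21. It was 15.2-fold above the next class in the intact nerve (perineurial, 11.8 to 20.5), 2.08-fold at day 7 (MES_EPI-diff) and 5.35-fold at day 21 (MES_DIFF). Perineurial Gas1 was low, at 74.5, 12.8 and 38.4 CPM, as was endoneurial Gas1, at 40.1, 18.5 and 18.8. In thinned cells Gas1 was seen in 74.6%, 49.7% and 64.9% of epineurial cells, against 0.588% of myeloid-like cells at day 7 and 0% at day 21, and 7.04% of vascular smooth muscle-like cells in the intact library. Of all annotated Gas1 UMIs, epineurial cells gave 94.1%, 78.7% and 83.9%. Gas1 and Ptch1 ran against each other across the 14 groups, with a Pearson r of -0.72.

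Cdon was likewise highest in epineurial cells, at 92.7, 62.1 and 122 CPM, and exceeded the next class 4.08-fold, 3.20-fold and 3.16-fold. Perineurial Cdon stood at 22.1 CPM on 16 UMIs in the intact nerve, 3.47 on 13 UMIs at day 7 and 21.4 at day 21. Boc stood at 56.2, 35.7 and 50.5 CPM in epineurial cells and at 60.7, 12.5 and 58.1 in perineurial cells. The intervals of these classes overlapped in the intact nerve, and at day 21 each overlapped that of MES_DIFF cells (51.1 CPM). At day 7 perineurial Boc was below epineurial Boc. In endoneurial cells Cdon and Boc were near the counting floor, with Cdon at 9, 14 and 25 UMIs and Boc at 10, 9 and 24. The class with the second highest Ptch1 in the intact nerve thus held little Cdon, Boc or Hhip RNA.

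For scale, these class patterns are set beside those of all genes. The classes are the authors' annotation, made from the same cells, so the comparison is a description. Of 13688 genes with more than 3 UMIs in at least 1 of the 3 main classes of each library, 20.4% were highest in the perineurial class in all 3 libraries, and 4 of the 9 members (Ptch1, Smo, Gli1 and Gli2) were. The epineurial class was highest in all 3 libraries for 11.4% of genes and for 3 members (Gli3, Cdon and Gas1). Some of these leads are not firm. Gli2 overlapped the endoneurial class in the intact nerve and at day 7, and Gli3 did in the intact nerve. Smo was highest in epineurial cells of the intact nerve after thinning. The count leaves out MES_DIFF cells, which held the highest Gli2 in both bridge libraries and the highest Smo at day 21. A lead of at least 2-fold in all 3 libraries was held by 2.08% of genes for the perineurial class, with Ptch1 the only member, and by 3.17% for the epineurial class, with Cdon and Gas1. No member was highest in endoneurial cells throughout, against 8.64% of genes.

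Differences between libraries were read as log2 ratios of CPM, and a gene was counted as higher or lower where the ratio was at least 2-fold and its exact binomial interval excluded no change. Genes with 3 or fewer UMIs in both libraries were left out. Within epineurial cells at day 21 against intact, 4 of the 9 members were higher and none lower, where 4.05% of all 15224 genes measured were higher and 6.58% lower. Epineurial Ptch1 was 3.54-fold higher (log2 ratio 1.83, interval 1.55 to 2.13), Hhip 3.94-fold (1.98, 1.72 to 2.25), Gli1 2.88-fold (1.52, 1.13 to 1.96) and Gli2 2.08-fold (1.06, 0.56 to 1.63). These 4 are the 3 target genes and the activator Gli2. The co-receptors did not pass, with Cdon at 0.40, Boc at -0.16 and Gas1 at -0.66. In epineurial cells the 9 perineurial markers together stood at 28.9, 34.8 and 177 CPM in the order intact, day 7, day 21. The same markers stood at 2945 CPM in perineurial cells at day 21. The part of perineurial RNA in the epineurial Ptch1 and Gli1 levels was not tested.

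The day 7 epineurial cells differed from both other libraries in Hhip. Against intact, 2 members were lower and none higher, where 11.2% of genes were lower and 6.18% higher: Hhip at -1.56 (-1.90 to -1.21) and Gas1 at -1.21 (-1.27 to -1.16). Epineurial Ptch1 and Gli1 were at 0.64 and 0.93 there, short of 2-fold. At day 21 against day 7, 2 members were higher and none lower, against 5.81% and 4.05% of genes, namely Hhip, 11.6-fold (3.53, 3.29 to 3.79), and Ptch1, 2.28-fold (1.19, 1.04 to 1.34). The comparisons share libraries, so they are not independent of each other. Cells with 3 or more Schwann markers made up 0, 4.59% and 11.4% of epineurial cells in the order intact, day 7, day 21. At day 21 epineurial Ptch1 was 99.5 CPM in such cells and 101 CPM in the others. With cells carrying 3 or more markers of another type left out, the day 21 ratio to intact was 1.81 for Ptch1 and 2.00 for Hhip. That filter uses Schwann, myeloid, lymphocyte and endothelial markers. It holds no perineurial markers, so it cannot show mixing with perineurial cells.

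**Figure D3:**
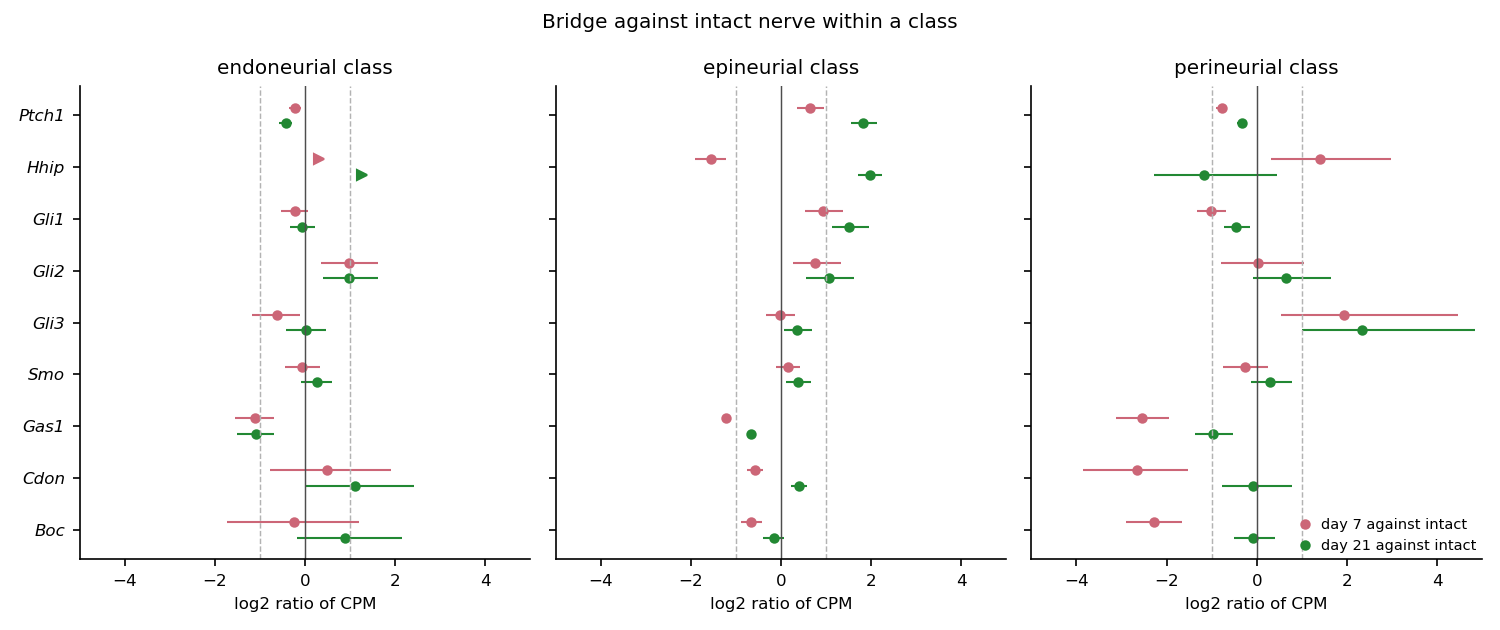
Log2 ratio of CPM in the bridge against intact nerve within the endoneurial, epineurial and perineurial classes (panels) for the 9 genes, with exact 95% intervals. Dashed lines mark 2-fold, and triangles are lower bounds where intact cells had 0 UMIs. Epineurial Ptch1, Hhip and Gli1 at day 21 lie between 1.52 and 1.98, and perineurial Cdon, Boc and Gas1 at day 7 lie between -2.66 and -2.28.

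Perineurial cells at day 7 against intact had more members past the threshold than any other class comparison, 2 higher and 4 lower, where 7.85% of genes were higher and 13.4% lower. The 3 co-receptors were lower, Cdon at -2.66 (-3.85 to -1.52), Gas1 at -2.54 (-3.13 to -1.95) and Boc at -2.28 (-2.90 to -1.65). They rest on few UMIs, day 7 against intact: 13 against 16 for Cdon, 48 against 54 for Gas1 and 47 against 44 for Boc. In the intact nerve 5 cells held 50.0% of the perineurial Cdon UMIs, 50.0% of Gas1 and 25.0% of Boc. The intervals do not cover such unevenness between cells. Gli1 was 2.02-fold lower, at -1.02 (-1.33 to -0.69), and Ptch1 1.71-fold lower, at -0.77 (-0.90 to -0.65), short of 2-fold. Gli1 sat on the threshold, at -0.83 with TMM scaling, a normalization that trims extreme genes and here shifts all perineurial ratios by 0.18, and at -0.96 without cells carrying markers of another type. Hhip was 2.63-fold higher, at 1.40 (0.32 to 2.99), on 88 UMIs against 6, and Gli3 was 3.84-fold higher on 69 UMIs against 3. After thinning, Hhip was at 1.75 with an interval (-0.04 to 5.19) that included no change. The intact side of these comparisons rests on 116 cells.

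At day 21 perineurial cells were close to intact in most members. Gli3, at 2.34 (1.00 to 4.84), was the only member past the threshold against intact, where 4.06% of genes were higher and 6.75% lower, and after thinning its interval included no change (1.76, -0.18 to 7.65). Ptch1 stood at -0.32, Gli1 at -0.45, Cdon at -0.09 and Boc at -0.08, and Gas1 at -0.97 (-1.36 to -0.52), or -1.27 after thinning and -1.04 without cells carrying markers of another type. Against day 7, 3 members were higher and 1 lower, against 7.34% and 6.46% of genes. The 3 were the co-receptors Cdon, 5.95-fold, Boc, 4.59-fold, and Gas1, 2.98-fold, and Hhip was 5.90-fold lower (-2.56, -3.09 to -2.06). Perineurial Ptch1 at day 21 was 724 CPM in the 152 cells with 3 or more Schwann markers and 742 in the other 1917.

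In endoneurial cells Ptch1 and Gli1 were within 1.35-fold of the intact level at both times. Against intact, endoneurial Ptch1 was at -0.22 (-0.35 to -0.08) at day 7 and -0.43 (-0.57 to -0.29) at day 21, and Gli1 at -0.23 and -0.06, with intervals that include no change. Only Gas1 passed at day 7, 2.16-fold lower, where 10.4% of genes were lower and 8.97% higher. At day 21 Gas1 was 2.12-fold lower, and Hhip and Cdon passed as higher, where 6.22% of genes were lower and 4.76% higher. None of the endoneurial differences in the 9 members passed after thinning to 2000 UMIs. Endoneurial cells with 3 or more Schwann markers made up 6.18%, 8.63% and 22.8% in the order intact, day 7, day 21. Without cells carrying markers of another type, neither Hhip (1.58, lower limit -5.29) nor Cdon (1.03, -0.14 to 2.40) passed at day 21. The day 21 Hhip value is a lower bound of 2.39-fold on 9 UMIs against 0, and the Cdon interval starts at 0.00, on 25 UMIs against 9. Between day 7 and day 21, Boc alone passed, 2.21-fold higher on 24 UMIs against 9, where 5.25% of genes were higher and 5.54% lower.

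In MES_DIFF cells, day 21 against day 7, Hhip was 3.55-fold higher (1.83, 1.53 to 2.14) and Boc 3.55-fold higher (1.83, 1.49 to 2.18), while 9.85% of genes were higher and 5.85% lower. After thinning, Boc was at 0.96 (-0.02 to 2.09). Ptch1 was at 0.63 and Gli1 at 0.67, short of 2-fold. In dividing cells Boc alone passed, 2.56-fold higher, where 7.39% of genes were higher and 3.50% lower, and Ptch1 was at 0.20. Cells with 3 or more Schwann markers went from 26.7% of this class at day 7 to 58.0% at day 21, and without cells carrying markers of another type Ptch1 was at 0.52 (0.30 to 0.73). No ratio is given for MES_EPI-diff, which had 22 cells at day 21; at day 7 it held 0 Hhip UMIs in 94 cells, which allows up to 1.88 CPM, and 238 CPM of Gas1.

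Summed over all annotated cells, the ratios also carry the differences in class makeup between libraries. At day 7 against intact, Gli2 was higher (1.01) and Gas1 lower (-1.28), where 8.46% of genes were higher and 13.6% lower. At day 21 against intact, Hhip (1.57) and Gli2 (1.33) were higher and Gas1 (-1.12) lower, where 6.13% of genes were higher and 7.77% lower. At day 21 against day 7, Hhip (1.90), Ptch1 (1.29) and Boc (1.14) were higher and none lower, where 9.27% of genes were higher and 7.01% lower. With every library given 1 class mixture, the day 21 ratio of Ptch1 against day 7 went from 1.29 to 0.38 (0.34 to 0.43) and against intact from 0.92 to -0.19, and Gli1 against intact from 0.82 to -0.02. Under that mixture Gli2 was at 0.57 at day 7 and 0.90 at day 21 against intact, and Gas1 at -0.68 at day 21, each short of 2-fold, while Hhip was at 1.79 against intact and 2.10 against day 7. Boc between the bridge libraries was at 0.99 with TMM scaling and 0.90 after thinning.

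The ligands were nearly absent from the mesenchymal classes. Of the 3, Dhh had 0, 116 and 112 UMIs in the annotated cells of the intact, day 7 and day 21 libraries, Shh 0, 19 and 1, and Ihh 0, 1 and 2. Most of the annotated Dhh lay in the dividing class, at 19.9 CPM at day 7 and 47.9 at day 21. There it came from the cells that carried 3 or more Schwann markers: 78.3 CPM against 1.02 in the other dividing cells at day 7, and 90.7 against 0 at day 21. Ptch1 went the other way, at 92.5 CPM in the dividing cells with Schwann markers and 229.9 in those without at day 7, and at 123 and 339 at day 21.

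Among barcodes outside the deposited classes, Schwann-like clusters held 272 of the 525 Dhh UMIs at day 7 and 1382 of 1693 at day 21. They held 316 of 369 and 10 of 11 Shh UMIs. The remaining UMIs lay in other clusters or in barcodes left out of the clustering. In the Schwann-like clusters Dhh, the ligand that Schwann cells are known for, stood at 118 CPM at day 7 (195 cells, 61.5% with a UMI). At day 21 it stood at 187 CPM (1216 cells, 53.6% with a UMI). Myeloid-like cells held 0.588 and 4.85 CPM of Dhh. By cluster, Dhh stood at 199, 168, 140.0 and 89.2 CPM at day 7, in 29, 27, 12 and 127 cells. In the same order it stood at 151, 179.5, 232 and 76.1 CPM at day 21, in 498, 336, 366 and 16 cells. Shh, pooled over these clusters, stood at 138 CPM at day 7 (316 UMIs) and 1.35 at day 21 (10 UMIs). At day 7, 5 cells held 33.9% of those Shh UMIs. The pooled levels also carry the mixture of clusters in each library. The day 7 Shh was concentrated in 1 cluster of 127 day 7 cells, in which 61 cells held a UMI and the level was 205 CPM. At day 21 this cluster had 16 cells, 4 of them with a UMI, and Shh stood at 50.7 CPM (18.6 to 110.5, 6 UMIs). Shh is among the 10 leading genes of this cluster. Genes of the pathway lists were left out of the clustering, and the level there is a description. Only 5 Schwann-like cells were found in the intact library, with 0 UMIs of any ligand, so the intact ligand level cannot be read from these sorted cells. Schwann-like cells themselves held Ptch1 at 34.4 CPM at day 7 and 52.3 at day 21, where myeloid-like cells held 7.06 and 55.8, and Gli1 at 4.79 and 2.97 CPM.

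**Figure D4:**
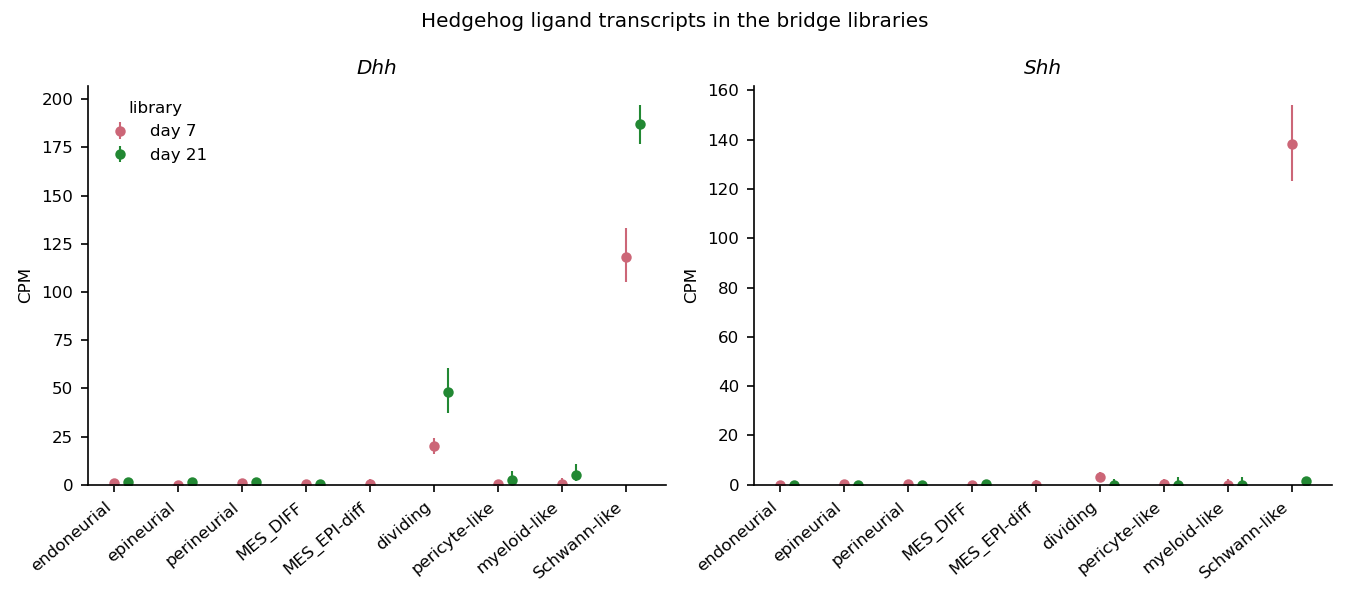
Level of Dhh and Shh in CPM in the day 7 and day 21 libraries, by deposited class and for 3 groups of barcodes outside the classes, with exact Poisson 95% intervals. Schwann-like cells held 118 and 187 CPM of Dhh, and Shh reached 138 CPM in them at day 7 and 1.35 at day 21. These levels pool Schwann-like clusters whose mixture differs between the libraries.

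The rest of the pathway was followed in 5 lists, in all annotated cells and beside the median log2 ratio of all genes (-0.07 at day 7 against intact, 0.04 at day 21 against intact and 0.11 between the bridge libraries). The counts in these lists stand against all genes, of which 8.46% were higher and 13.6% lower at day 7 against intact, 6.13% and 7.77% at day 21 against intact, and 9.27% and 7.01% between the bridge libraries. The 9 members had medians of -0.33, 0.68 and 0.77 in that order. Of 5 measured genes for ligand release, 3 were higher and 1 lower at day 7 against intact and 1 each at day 21. At day 7 these were Hhat, which acylates the ligand, and the secreted carriers Scube1 and Scube2 (higher), and Scube3 (lower), all named after their values were seen. Of 4 measured surface binding genes outside the 9, 1 was higher and 2 lower at day 7, and 1 higher and 1 lower at day 21. They included the heparan sulfate proteoglycans Gpc1, higher at both times (1.19 and 1.67), and Gpc3, lower at both (-1.74 and -1.19). Of 22 cytoplasmic regulators, 2 were lower at day 7 (Arrb1 and Ulk3) and none passed at day 21 against intact. Of 26 genes of the primary cilium, the compartment through which Smo acts, 2 were lower at day 7 (Dync2h1 and Tctn1) and none passed at day 21; Ulk3 and Tctn1 are named after their values were seen. Arrb1, an arrestin reported to act with Smo, was at -1.26 at day 7 against intact and at 1.47 at day 21 against day 7. Dync2h1, a motor of transport within the cilium, was lower at day 7 (-1.05).

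Genes reported as Hedgehog targets in other tissues passed in both directions. Of 13 measured, 1 was higher and 5 lower at day 7 against intact, 3 were higher and 4 lower at day 21, and between the bridge libraries 2 were higher and 1 lower, to be read against the same shares of all genes. Bmp4, a secreted growth factor, stood at 43.6 CPM in the intact nerve and 3.12 at day 7 (-3.80), and was lower at day 21 as well (-3.18). Foxs1 (-1.77), a forkhead transcription factor, and Bcl2 (-1.57), an inhibitor of cell death, were also lower at day 7. Snai1 (-2.09), a transcription factor, was lower at day 21, and the Wnt-binding protein gene Sfrp1 was higher (1.26). Ccnd1, a cyclin of the cell cycle, was higher at day 21 than at day 7 (1.02). Within epineurial cells at day 21 against intact, where Ptch1, Hhip and Gli1 were all higher, 1 of 12 measured genes of this list was higher and 5 were lower, against 4.05% and 6.58% of all genes.

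The genes most like each target across the 14 groups were named by Pearson r of log2(CPM + 1) among 8336 candidates. For Ptch1 they were Foxd2 (0.961), Tenm2 (0.954), Dock5 (0.948), Tec (0.945) and Etl4 (0.943), each highest in a perineurial group. For Gli1 they were Extl3 (0.955), Rnf185 (0.944), Cldn1 (0.933), Gna12 (0.932) and Rhbdf1 (0.922), of which Cldn1 encodes a tight junction protein and is one of the perineurial markers. For Hhip the genes included Arl5a (0.825), Mbd1 (0.806), Kifap3 (0.796) and Qars (0.786). For Gas1 they were Cast (0.942), Mn1 (0.939), Zfp503 (0.936), Prrx1 (0.934) and Ebf3 (0.926), each highest in an epineurial group. No p-value is attached to these values, which are the highest of many and rest on groups drawn from 3 libraries.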

How the data were processed

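Single-cell RNA was measured in 3 libraries, 1 per group. The authors deposited matrices of raw UMI counts, which Cell Ranger 6.1.2 produced per the file headers. Cell Ranger 3.0.2, Seurat 4.0.1 and the mm10 and GRCm38 builds are named in the submitters' processing notes, and intron and strand settings are not given in the sources used here. Strand matters most for Gli1, which overlaps Arhgap9 on the other strand. Classes are the authors' deposited annotation; 7234 of 7235 annotated cells were found among 14703 barcodes.

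Counts were summed per class and library and divided by the summed UMIs to give CPM, with exact Poisson intervals at 95%. Shares carry exact Clopper-Pearson intervals. Log2 ratios used 0.5 added counts and exact conditional binomial intervals, and no ratio was made under 50 cells. Fold bounds against 0 used a floor of 3 counts over the group. Annotated UMIs were 8371421 in the intact library, 36169912 at day 7 and 33683464 at day 21. UMIs mark molecules, so intervals cover counting error only, not variation between nerves.

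Barcodes with no class (7469) were kept at 2000 or more UMIs, 1000 or more genes and under 10% mitochondrial UMIs; 4139 were clustered (scanpy 1.11.5, Leiden resolution 1, 30 components) and named from fixed markers. No doublet caller was run. As an alternative, cells with 3 or more markers of another type (Schwann, myeloid, lymphocyte or endothelial) were left out. Other alternatives were thinning to 2000 UMIs, TMM factors (edgeR 4.0.16), cells weighted alike, 2 added counts, every barcode, and 1 class mixture. The ratio step was tested on simulated data. Python 3.11.15, scipy 1.17.1 and R 4.3.3 were used.

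The 9 genes and the lists were chosen with earlier results of these data known. All 9 genes and the ligands are always named; 1 further gene is not reported here. From other lists, up to 3 genes per comparison are named, those with the largest log2 ratio among genes past the threshold and at 20 CPM or more. Up to 5 of the most alike genes are given for Ptch1, Hhip, Gli1 and Gas1, members excluded.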

Additional observations from a re-analysis of the deposited data

Results flagged for a closer look

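Hhip differed in direction between classes in 3 comparisons, and the differences between classes were not tested. At day 7 against intact its log2 ratio was 1.40 in perineurial cells and -1.56 in epineurial cells. At day 21 against day 7 it was 3.53 in epineurial cells and -2.56 in perineurial cells, and 1.83 in MES_DIFF cells against the same -2.56. The perineurial side rests on 6, 88 and 53 UMIs in the order intact, day 7, day 21.

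Ligand RNA appeared in barcodes outside the deposited classes, which the comparisons do not use. Over all such barcodes Dhh stood at 23.9 CPM at day 7 (525 UMIs) and 92.9 CPM at day 21 (1693 UMIs). Shh stood at 16.8 CPM at day 7 (369 UMIs) and 0.604 CPM at day 21 (11 UMIs).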

How the results depend on the processing

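No direction of a ratio past the threshold turned under any alternative run. The counts of members past the threshold stayed within 1.5 times in the epineurial comparisons, in perineurial cells at day 7 against intact and at day 21 against day 7, and in all cells at day 21 against day 7. Over all cells at day 7 against intact, 2 members passed, and 1 did with cells weighted alike, with 2 added counts or with every barcode. Over all cells at day 21 against intact, 3 passed, 5 after thinning to 2000 UMIs and 1 with 1 class mixture. In endoneurial cells the count at day 7 went from 1 to 0 after thinning and 2 without cells carrying markers of another type. At day 21 it went from 3 to 0 and 1 in the same order, and between the bridge libraries from 1 to 0 after thinning or with cells weighted alike. Perineurial cells at day 21 against intact went from 1 to 2 after thinning, without cells carrying markers of another type, and with 2 added counts. MES_DIFF went from 2 to 1 after thinning. Dividing cells went from 1 to 0 after thinning, 2 with cells weighted alike or 2 added counts, and 3 without cells carrying markers of another type. Of 126 single ratios, thinning moved 42, TMM scaling 16, cells weighted alike 12, leaving out cells with markers of another type 7 and 2 added counts 0. Of the 27 ratios over all cells, 1 class mixture moved 19 and every barcode 12. TMM scaling shifted all ratios at day 7 against intact by 0.15 over all cells. The class with the highest level was the same in 24 of 27 cases after thinning, the exceptions being Smo in the intact nerve and at day 7 and Gli3 at day 7. Depth limits the low genes most, since thinning leaves few UMIs of Hhip, Cdon and Boc in endoneurial cells. The comparison of MES_EPI-diff was not run, with 22 cells at day 21. No paired analysis was possible because each group is 1 library with no replicate numbers.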

Other observations

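Mural cells outside the deposited classes also held members of the pathway. Pericyte-like cells (183 at day 7 and 233 at day 21) held Gas1 at 119 and 203 CPM, with a UMI in 53.6% and 50.6% of cells. Their Gli1 stood at 20.4 and 9.76 CPM, Gli3 at 13.6 and 26.0, Smo at 27.1 and 25.2, and Ptch1 at 32.6 and 17.1. Vascular smooth muscle-like cells held Gas1 at 29.1 CPM in the intact nerve and 81.7 at day 21, so Gas1 RNA was not confined to the epineurial class.

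Within classes, the share of cells with Ptch1 was read beside a second gene, with every cell at 2000 UMIs. In perineurial cells at day 21 Ptch1 was seen in 66.5% (61.9 to 70.9) of cells with Gli1 and 58.5% (56.0 to 60.9) of cells without. The perineurial shares were 65.7% and 53.1% in the intact nerve and 69.7% and 62.0% at day 7, with overlapping intervals in each. In endoneurial cells the shares were 47.8% and 29.7% in the intact nerve, 31.8% and 33.0% at day 7, and 51.8% and 25.5% at day 21. The endoneurial intervals overlapped at day 7 only. Perineurial cells at day 21 with a Gas1 UMI held Ptch1 in 39.8% (30.9 to 49.3) against 61.4% (59.2 to 63.6) of those without. These are cells of 1 library each, and no test was made.

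Epineurial cells at day 21, also at 2000 UMIs, were divided by a UMI of Pi16 or Dpp4, markers of adventitial fibroblasts. The 459 cells with one held Hhip at 127 CPM and the 568 without at 162, a ratio of 0.788 (0.619 to 0.997). The ratio for Hhip was 0.950 (0.472 to 1.81) in the intact nerve and 0.688 (0.201 to 1.96) at day 7, and of the 27 ratios (9 genes in 3 libraries) only Hhip at day 21 and Gas1 in the intact nerve (1.14, 1.02 to 1.28) had an interval without 1.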
